A study of Mus musculus with 4 samples.

Results

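The 7 genes of the Cip/Kip and Ink4 families of cyclin-dependent kinase (CDK) inhibitors were followed in ovaries of mouse embryos at E13.5. They were taken by symbol, Cdkn1a, Cdkn1b, Cdkn1c, Cdkn2a, Cdkn2b, Cdkn2c and Cdkn2d, from a table of 34682 rows of read counts, and all 7 passed the filter on low counts that left 15442 rows for testing. The data are bulk RNA-seq of developing ovaries from 2 mutant and 2 wild-type libraries, numbered replicate 1 and 2 in each group. Mutants carried a BAC, a large genomic insert, in which the regulatory elements and promoter of Wt1, active in gonadal somatic cells, drive the Sall1 coding sequence. It was placed in female embryonic stem cells (C57BL/6J or a hybrid of it with 129) by PiggyBac transposition, and mice were made from picked clones by morula aggregation. The methods do not say how many clones stand behind the mutant libraries, whether host cells remained in the dissected ovaries or how many embryos were pooled. The controls are called littermates in one place, wild-type CD1 gonads in another, and B6 in the names of their count columns, so a strain difference cannot be told apart from the transgene.

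CDK inhibitors bind cyclin-CDK complexes and hold cells out of the division cycle. The Cip/Kip proteins p21, p27 and p57 act on several cyclin-CDK complexes, whereas the Ink4 proteins p16, p15, p18 and p19 bind the G1 kinases CDK4 and CDK6 and keep them from D cyclins. In the fetal ovary, p27 is known as a mark of arrested pre-granulosa cells, the supporting cells that will surround the oocytes, while germ cells of the same organ leave mitosis and enter meiosis. Cdkn1c is an imprinted gene expressed mainly from the maternal copy.

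Promoter sequences of 6 of the 7 genes, 9 in all, were found in the RefSeq table on GRCm38.p6. The 250 bases before the start of Cdkn1b are shown because this gene is 1 of the 2 inhibitors whose levels did not overlap between genotypes. Levels did not overlap in 30.9% of all rows tested either, and the other inhibitor, Cdkn1c, had no promoter in the RefSeq table. The bases before both starts of Cdkn2a are shown because the counts of this gene join 2 products. Capitals mark GC boxes (GGGCGG, either strand) and CCAAT boxes (CCAAT, either strand), and each sequence runs 5′ to 3′ along its gene. Each is a match of letters and not a measured binding site.
Cdkn1b, plus strand, chr6:134920151-134920400: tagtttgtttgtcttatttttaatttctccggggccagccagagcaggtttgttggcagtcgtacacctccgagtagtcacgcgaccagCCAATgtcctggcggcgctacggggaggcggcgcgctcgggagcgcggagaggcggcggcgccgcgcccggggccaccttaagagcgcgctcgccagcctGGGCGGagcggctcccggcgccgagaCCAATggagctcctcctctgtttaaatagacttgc
Cdkn2a, distal start (Arf), minus strand, chr4:89294620-89294869: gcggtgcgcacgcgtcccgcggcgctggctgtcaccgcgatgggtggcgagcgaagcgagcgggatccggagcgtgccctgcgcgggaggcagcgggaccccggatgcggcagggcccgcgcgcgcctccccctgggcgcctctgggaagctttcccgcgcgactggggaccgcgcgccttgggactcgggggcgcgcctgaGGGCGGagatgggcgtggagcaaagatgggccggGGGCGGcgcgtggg
Cdkn2a, proximal start (p16), minus strand, chr4:89282193-89282442: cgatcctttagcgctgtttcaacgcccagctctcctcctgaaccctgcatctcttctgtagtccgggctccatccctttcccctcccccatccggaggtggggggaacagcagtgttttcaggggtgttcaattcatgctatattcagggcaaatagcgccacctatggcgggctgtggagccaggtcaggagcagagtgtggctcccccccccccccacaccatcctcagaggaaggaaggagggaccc
The Cdkn1b window held 1 GC box and 2 CCAAT boxes, the Arf window 2 GC boxes and the p16 window 0 of either. Of 32851 promoter windows of the same length in the table, 32.7% held a GC box and 33.8% a CCAAT box.

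Library totals lay between 11036313 and 17869840 counts, lower in both mutant libraries than in both wild-type libraries, and a floor of 3 counts corresponds to 0.17 to 0.272 CPM (counts scaled to the library size, with TMM factors). Nothing in the labels says that the replicates came from separate animals, so p-values measure the spread between these libraries, which may be technical. Replicates differed beyond counting noise (chi-square over its degrees of freedom 11.8 for the mutant pair and 13.2 for the wild-type pair). Sall1, the gene on the BAC, was at 104 ± 11.8 CPM (SD, n = 2) with the transgene and at 14.4 ± 2.53 CPM (SD, n = 2) without it, a log2 fold change of 2.85 in the direction the labels give (Benjamini-Hochberg adjusted p = 0.00823, edgeR's quasi-likelihood test). Wt1, which marks the somatic cells the construct is meant for, had 317 and 309 CPM. With edgeR, 9 of the 15442 rows, or 0.0583%, had an adjusted p under 0.05, 2 higher and 7 lower in the mutants.

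Of the 7 inhibitors, 0 passed in edgeR's quasi-likelihood test (adjusted p under 0.05), where 0.0583% of all rows did. At an unadjusted p under 0.05 there were 2 of 7, Cdkn1b and Cdkn1c, against 5.69% of all rows, and these were also the 2 inhibitors whose groups did not overlap, as in 30.9% of all rows (15.8% with mutants higher and 15.1% with mutants lower). DESeq2 with default settings, the tool of the study, called 1 of the 7, Cdkn1c, where it called 0.694% of the rows it tested. With the replicate number added to edgeR's fit as a block, 2 of the 7, Cdkn1b and Cdkn1c, had an adjusted p under 0.05, where 2.49% of all rows did. The block leaves few residual degrees of freedom, so its p-values rest largely on a variance borrowed from other genes. Same-numbered libraries of both genotypes carry consecutive library numbers in the names of their count columns, but no source used here says that they share a litter or a day. The estimates were higher in mutants for 2 and lower for 5 inhibitors, with a median log2 fold change of -0.11, beside -0.00088 over all rows tested. In absolute size the median was 0.19 for the inhibitors and 0.11 for all rows. The estimates of Cdkn1b and Cdkn1c had opposite signs, and both genes belong to the Cip/Kip family.

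**Figure D1:**
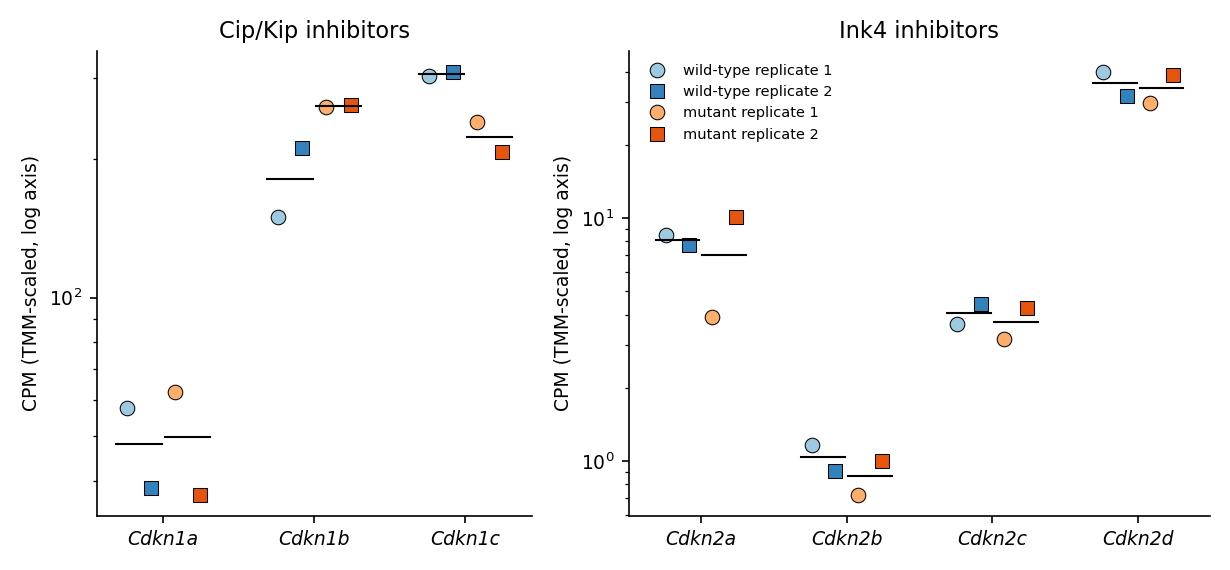
Level of each inhibitor in CPM (log axis) in the 2 wild-type (blue) and 2 mutant (orange) libraries, Cip/Kip genes on the left and Ink4 genes on the right. Circles are replicate 1, squares replicate 2, and lines the group means; the mutant and wild-type points are separated for Cdkn1b and Cdkn1c and overlap for the other 5 genes.

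Cdkn1b, which encodes p27, is annotated by GENCODE M1 at 134870419 to 134875531 of chromosome 6, plus strand, of NCBIM37, the assembly called mm9 in the submitters' processing notes. It had 2858 and 3942 counts in mutant replicates 1 and 2, which is 259 and 262 CPM. In wild-type replicates 1 and 2 it had 2586 and 3722 counts, or 150 and 211 CPM. The mutant libraries lay almost at the same level and above both wild-type libraries, which were themselves far apart. The log2 fold change was 0.53 (standard error 0.16, 95% interval 0.16 to 0.90), equal to 1.44-fold. Its unadjusted p was 0.0119, and it did not pass over all rows (adjusted p = 0.575, edgeR's quasi-likelihood test, and 0.0975 with DESeq2), but it did with the replicate block (0.00625 with edgeR and 0.0112 with DESeq2). The size rested on which wild-type library was used, since the log2 fold change was 0.31 without wild-type replicate 1 and 0.80 without wild-type replicate 2 (adjusted p = 0.999 and 0.247, edgeR). Of all rows tested, 9.62% had a larger absolute log2 fold change.

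Cdkn1c, which encodes p57, spans 150644255 to 150646955 of chromosome 7, minus strand. Mutant replicates 1 and 2 held 2649 and 3111 counts, or 240 and 207 CPM. The wild-type libraries held 5193 and 5458 counts, or 302 and 309 CPM. Here the wild-type libraries were close together and both mutant libraries lay below them. The log2 fold change was -0.45 (standard error 0.10, 95% interval -0.69 to -0.21), so that the mutant level was 73.1% of the wild-type level. The unadjusted p was 0.00316 and the adjusted p 0.347 in edgeR's quasi-likelihood test, whereas DESeq2 gave a log2 fold change of -0.46 with an adjusted p of 0.0293. With the replicate block the adjusted p was 0.00696 in edgeR and 0.0163 in DESeq2. Without mutant replicate 1 the log2 fold change was -0.56 and it also passed in edgeR (adjusted p = 0.0318), while without mutant replicate 2 it was -0.35 (adjusted p = 0.422). It stayed negative with each library left out, and 12.1% of all rows had a larger absolute log2 fold change.

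Cdkn1a, which encodes p21 and is a well known target of p53, lies on chromosome 17 from 29227924 to 29237667 on the plus strand. Its level was 62.3 and 37.4 CPM in the mutant libraries and 57.5 and 38.6 CPM in the wild-type libraries, from between 563 and 989 counts. Replicate 1 was the higher library in both groups, by far more than the counting error of 3.18% to 4.21% per library, and the groups overlapped completely. The log2 fold change was 0.05 (standard error 0.27), and its 95% interval from -0.60 to 0.69 leaves room for a ratio between 0.662 and 1.62. With the replicate block in edgeR the log2 fold change was 0.04 with a standard error of 0.10. Its sign turned without mutant replicate 1 (-0.36) and without wild-type replicate 2 (-0.20), fits in which the groups do not hold the same replicate numbers.

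**Figure D2:**
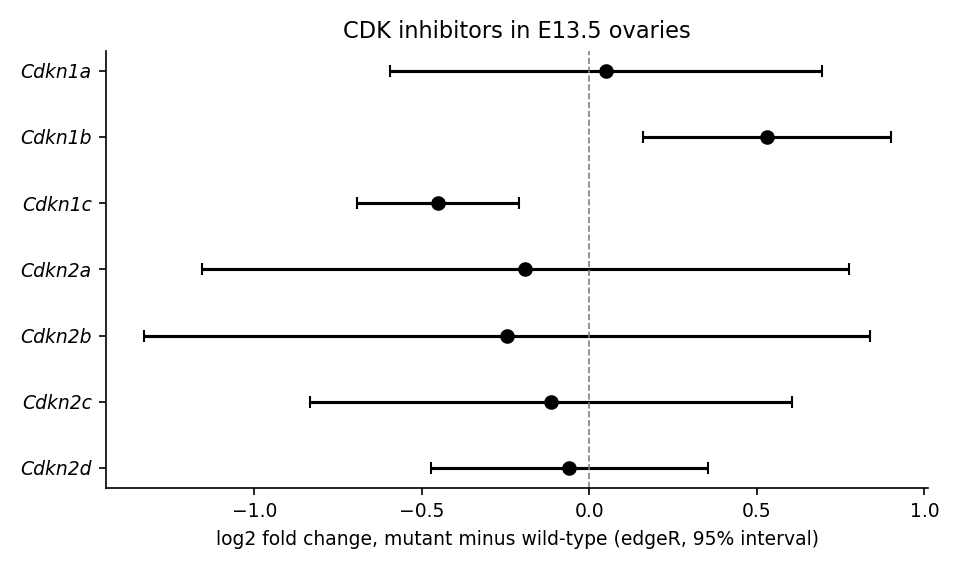
Log2 fold change of each inhibitor, mutant minus wild-type, with its 95% interval from edgeR's quasi-likelihood fit of 2 against 2 libraries. The intervals, which are not adjusted for the number of genes, leave out 0 for Cdkn1b (0.16 to 0.90) and Cdkn1c (-0.69 to -0.21) and cover 0 for the other 5.

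In summed CPM, in which a longer transcript weighs more, the opposite differences of Cdkn1b and Cdkn1c nearly cancelled. The 3 Cip/Kip genes together gave 562 and 506 CPM in the mutant libraries and 510 and 559 CPM in the wild-type libraries, a mean of 534 ± 39.4 CPM (SD, n = 2) in mutants and 534 ± 34.8 CPM (SD, n = 2) in wild-types. Per kilobase of transcript the sum was 214 and 184 CPM per kb in the mutant libraries, both below the 219 and 227 CPM per kb of the wild-type libraries, a mean of 199 ± 21.1 against 223 ± 5.15 CPM per kb (SD, n = 2 each), so the equal totals hold only for CPM not divided by length. For each count of Cdkn1c there were 1.08 and 1.27 counts of Cdkn1b in mutant replicates 1 and 2, but 0.498 and 0.682 in wild-type replicates 1 and 2. The mean ratio was thus 1.17 ± 0.133 (SD, n = 2) in mutants and 0.59 ± 0.13 (SD, n = 2) in wild-types, with no overlap. That separation follows from the opposite differences of the genes it is built from and adds nothing to them. This ratio was chosen after the values of both genes had been seen and is a description; 2 libraries against 2 cannot give an exact permutation p below 0.333. In whole ovaries, fewer cells of a type and less RNA per cell cannot be told apart, so the ratio does not say in which cells either transcript differed.

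**Figure D3:**
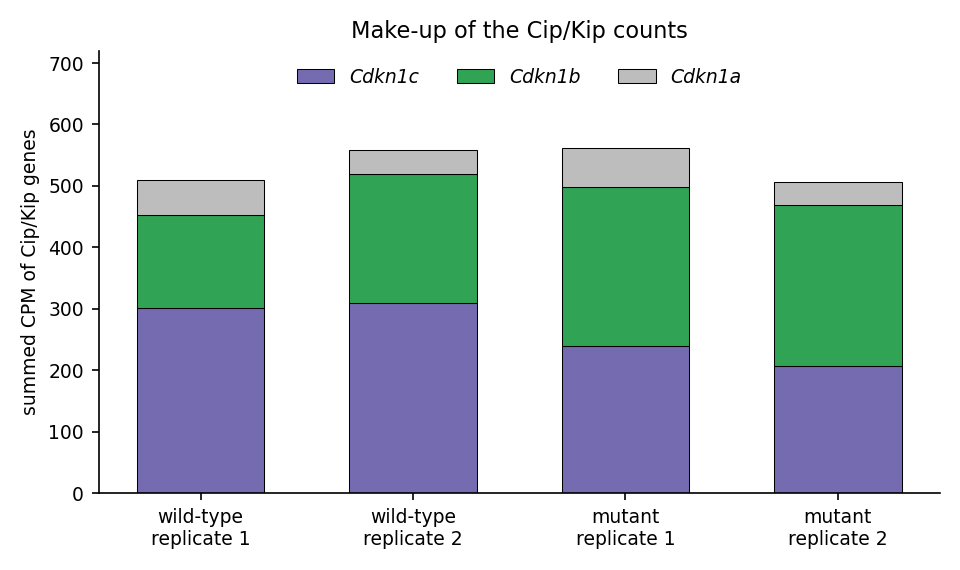
Summed CPM of Cdkn1c, Cdkn1b and Cdkn1a, stacked from 0, in each of the 4 libraries. Not divided by transcript length, the totals lie between 506 and 562 CPM in all 4 libraries, while the Cdkn1c part is smaller and the Cdkn1b part larger in both mutant libraries.

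The Ink4 genes were lower than Cdkn1b and Cdkn1c in counts, and the groups overlapped for all 4 of them. Cdkn2d, which encodes p19 and spans 21092907 to 21095653 of chromosome 9, minus strand, was the Ink4 gene with most counts. It had 29.8 and 38.8 CPM in the mutant libraries and 39.9 and 31.8 CPM in the wild-type libraries. Its log2 fold change was -0.06 (standard error 0.17, 95% interval -0.47 to 0.35), the narrowest interval of the Ink4 genes. The sign turned without mutant replicate 1 (0.11) and without wild-type replicate 1 (0.11). The table holds a further row named Cdkn2d_copy2 with 88.3% to 92.4% of the Cdkn2d counts in each library and a log2 fold change of -0.04. What the 1781 rows with such names stand for is not given in the sources used here, and reads shared between both rows cannot be separated.

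Cdkn2a spans 88920377 to 88940557 of chromosome 4, minus strand, and encodes 2 unrelated proteins, p16 from the proximal and p19Arf from the distal first exon, joined to the same second exon. Arf is not a CDK inhibitor itself; it binds MDM2 and so stabilizes p53. Counts per gene do not separate the products whose promoters are shown above. Cdkn2a had 43 and 152 counts in the mutant libraries, or 3.9 and 10.1 CPM. In the wild-type libraries it had 146 and 136 counts, or 8.49 and 7.71 CPM. Mutant replicate 1 was the lowest library, and its 95% Poisson interval of 31.1 to 57.9 counts covers counting error only, while mutant replicate 2 was the highest. The log2 fold change of -0.19 (standard error 0.41, 95% interval -1.16 to 0.77) was therefore within the replicate error, and it was 0.32 without mutant replicate 1 and -1.05 without mutant replicate 2.

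Cdkn2b, which encodes p15, a gene induced by TGF-beta in many cell types, is the neighbour of Cdkn2a on chromosome 4, from 88952198 to 88956941. It was close to the limit of detection, with 8 and 15 counts in the mutant and 20 and 16 counts in the wild-type libraries, or 0.726 to 1.16 CPM. Counting error alone was 22.4% to 35.4% per library. The log2 fold change was -0.25 (standard error 0.46), and the 95% interval from -1.33 to 0.84 is wide, so that changes within it were not detectable at this depth. Cdkn2c, which encodes p18, lies further along chromosome 4 from 109333481 to 109339794. It had 35 and 64 counts in the mutant and 63 and 78 counts in the wild-type libraries, which is 3.18 and 4.25 against 3.66 and 4.42 CPM. Its log2 fold change was -0.11 (standard error 0.30, 95% interval -0.84 to 0.61), with a change of sign without mutant replicate 1 (0.07) and without wild-type replicate 2 (0.04). In the GENCODE M1 annotation, 0 other genes overlap any of the 7 inhibitors.

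Levels of different genes were compared per kilobase of the longest protein-coding transcript in the same annotation. Cdkn1c stood highest at 137 ± 25.6 CPM per kb (SD over the 4 libraries). Cdkn1b followed at 48.5 ± 11.5 CPM per kb, Cdkn2d at 27.6 ± 3.95, Cdkn1a at 25.6 ± 6.71, Cdkn2a at 8.13 ± 2.83, Cdkn2c at 1.57 ± 0.231 and Cdkn2b at 0.681 ± 0.131 CPM per kb. This order held for the means of both genotypes. Within libraries, the neighbours Cdkn2d and Cdkn1a overlapped and changed places in mutant replicate 1, so they do not differ beyond their spread. With the counts of Cdkn2d_copy2 added, an alternative chosen after seeing the data, Cdkn2d would stand at 52.3 ± 7.24 CPM per kb and above Cdkn1b in 2 of the 4 libraries, both wild-type, so its place depends on what that row holds. For the other neighbours the ranges over the 4 libraries did not overlap, although Cdkn1b exceeded Cdkn2d by only 1.05-fold in wild-type replicate 1. Cdkn1c made up 54.7% and Cdkn1b 19.7% of the summed level of the 7 genes per kb. In CPM, not divided by length, Cdkn1b exceeded Cdkn1c in both mutant libraries, but per kb Cdkn1c was the higher of the 2 in all 4 libraries, by 1.86-fold to 4.73-fold.

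**Figure D4:**
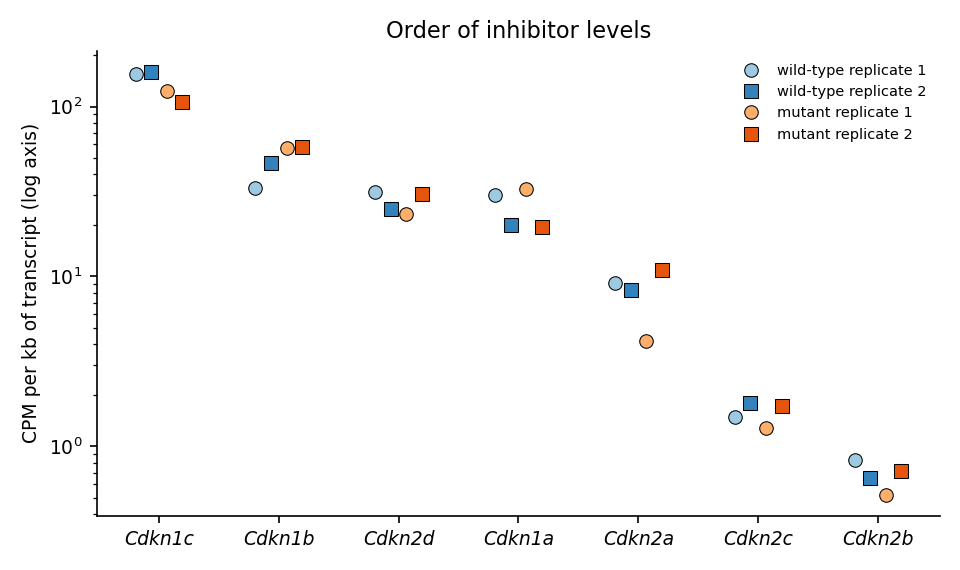
Level of each inhibitor in CPM per kb of its longest protein-coding transcript (log axis), ordered by the mean of the 4 libraries; symbols and colours give genotype and replicate. Cdkn1c is highest and Cdkn2b lowest in every library, and Cdkn2d and Cdkn1a overlap.

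None of the direct partners of the inhibitors passed in edgeR's quasi-likelihood test. Of 16 cyclins and CDKs listed, 15 were tested, 0 passed, and the median log2 fold change was -0.05. An unadjusted p under 0.05 was found for 1 of them (5.69% of all rows did, which is the background for this and the following lists). The latter was Ccnd1, 1 of the D cyclins that the Ink4 proteins keep from their kinases. It had 68.9 and 67.9 CPM in the mutant and 91.1 and 85.8 CPM in the wild-type libraries. Both mutant libraries lay below both wild-type libraries, with a log2 fold change of -0.37 (adjusted p = 0.477, edgeR). Ccnd2 and Cdk1, the mitotic kinase, were at -0.17 and -0.16. The groups overlapped for the more abundant D cyclins Ccnd2 (208 CPM in mutants, 233 CPM in wild-types) and Ccnd3 (119 and 128 CPM, log2 fold change -0.11). The Ink4 targets Cdk4 and Cdk6 were at 0.05 and 0.08. Among 17 tested pocket proteins, E2F factors and partners, through which CDK activity controls S-phase genes, 0 passed, 4 estimates were higher and 13 lower, and the median was -0.09. Rb1 was at 0.08 and E2f8, at -0.27, was farthest from 0. In the list of 18 proliferation genes, 0 passed and 1 (Rrm1, at -0.22) had an unadjusted p under 0.05. There, 15 estimates were lower and 3 higher, Mki67 among the latter at 0.06, with a median of -0.12 and a range from -0.23 to 0.06. Both mutant libraries lay below both wild-type libraries for 8 of the 18, beside 15.1% of all rows, and above them for 0. This list summed to 3744 to 4109 CPM in mutants and 4123 to 4242 CPM in wild-types, without overlap. A link of these levels to the inhibitors was not tested.

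Genes that act on the inhibitors were examined in the same fit. DESeq2 called 0 genes of these lists and of the partners above, and the pocket protein, ubiquitin ligase and Kcnq1 lists held 0 genes with an unadjusted p under 0.05. The ubiquitin ligase subunits that remove p27 and p21, with 10 of 11 genes tested, gave 0 calls and a median of -0.02; Skp2, which recognizes p27 for degradation, was at -0.07 and Dtl at -0.23. Of 28 transcriptional regulators, 0 passed, and 7 estimates were higher and 21 lower. An unadjusted p under 0.05 was found for 4 of them, Smad3, Tbx3, Id1 (-0.33) and Ets1 (-0.24), beside 5.69% of all rows. Smad3, which carries TGF-beta signals to genes such as Cdkn2b and Cdkn1a, had 205 and 209 CPM in the mutant and 146 and 169 CPM in the wild-type libraries. Its mutant libraries were both higher, with a log2 fold change of 0.40 (adjusted p = 0.467, edgeR). Myc and Tbx3, a repressor of Arf, were at -0.62 and -0.51, from 8.44 against 12.9 CPM and 5.89 against 8.38 CPM in mutants against wild-types. Polycomb genes that repress Cdkn2a, such as Bmi1, Cbx2 and Ezh2, lay at -0.08, -0.09 and -0.09.

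The p53 targets other than Cdkn1a were balanced, with 9 estimates higher and 9 lower of 18, 0 calls, 1 unadjusted p under 0.05 (Phlda3, at -0.51) and a median of -0.0027. The farthest were Pmaip1 at -0.75 and Bbc3 at -0.61, both under 3 CPM. Of the 10 genes of the imprinted Kcnq1 domain in which Cdkn1c lies, 0 passed, 3 estimates were higher and 7 lower, and the median was -0.13. Kcnq1ot1, the noncoding RNA that silences Cdkn1c on the paternal chromosome, had 46.2 and 28.5 CPM in the mutant and 29.1 and 30.8 CPM in the wild-type libraries. Only mutant replicate 1 stood above the others, and the groups overlapped. Among 12 other cell-cycle brakes, such as Wee1, Btg1 and Tob1, 0 passed and the median was 0.01, with Tob1 farthest at 0.29 and the only one with an unadjusted p under 0.05.

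**Figure D5:**
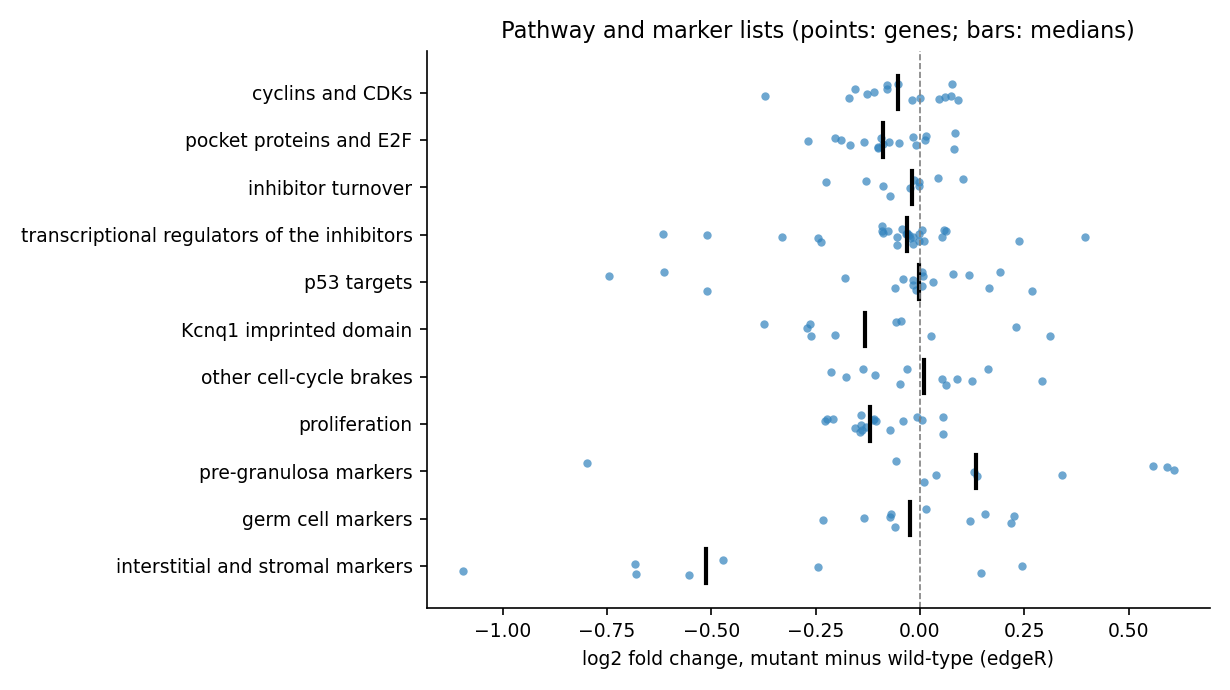
Log2 fold change, mutant minus wild-type, of each tested gene (points) in 11 lists of pathway genes and cell type markers, with the median of each list as a bar; the vertical scatter has no meaning. Medians of the pathway lists lie between -0.13 and 0.01, that of the pre-granulosa markers at 0.13 and that of the interstitial and stromal markers at -0.51.

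Marker lists of the cell types an ovary sample could hold were read beside the differences of Cdkn1b and Cdkn1c, and 0 markers of any list passed in edgeR. Of 8 interstitial and stromal markers 0 passed in edgeR, 5 had an unadjusted p under 0.05 (4 lower and 1 higher, beside 5.69% of all rows), and 2, Tcf21 and Pdgfra, passed with DESeq2 (beside 0.694% of all rows). Their median was -0.51, with 6 estimates lower and 2 higher; Tcf21, a stromal transcription factor, had 28 and 23.3 CPM in the mutant and 57.7 and 51.7 CPM in the wild-type libraries. The summed level of that list was 655 to 948 CPM in mutant and 851 to 914 CPM in wild-type libraries, where the groups overlapped. Its abundant member Col1a1, at a log2 fold change of 0.15, had 434 ± 170 CPM in mutants and 392 ± 19.1 CPM in wild-types (SD, n = 2 each). That spread between the mutant libraries weighs heavily in the sum. Taken singly, 6 of the 8 markers were lower in both mutant libraries than in both wild-type libraries, beside 15.1% of all rows. In the other direction there was 1, beside 15.8% of all rows. Of 10 pre-granulosa markers 0 passed in edgeR, and 5 had an unadjusted p under 0.05 (4 higher and 1 lower, beside 5.69% of all rows). With DESeq2, 2 passed in opposite directions, Lgr5 at 0.61 and Bmp2 at -0.80 (beside 0.694% of all rows). In this list 8 estimates were higher and 2 lower, with a median of 0.13. It summed to 1044 to 1139 CPM in mutant and 952 to 1000 CPM in wild-type libraries. Foxl2, the defining factor of these cells, was at 0.59 (adjusted p = 0.301, edgeR). The part of these cell types in the differences of Cdkn1b and Cdkn1c was not tested.

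The 10 germ cell markers, 0 of which passed or had an unadjusted p under 0.05, had a median of -0.02 and summed to 1742 to 1920 CPM in mutants and 1813 to 1856 CPM in wild-types. Mesonephric duct and tubule, Sertoli, endothelial and macrophage lists had medians of -0.0002, -0.03, -0.12 and 0.20, with 0 calls each by edgeR or DESeq2. They held 1, 1, 1 and 0 genes at an unadjusted p under 0.05, Pax8 at 0.80, Ptgds at 1.75 (3.95 against 1.18 CPM) and Kdr at -0.46. The endothelial list summed to 461 to 483 CPM in mutants and 504 to 530 CPM in wild-types, without overlap. Much of that gap lay in Kdr, with a mean of 92.8 CPM in mutants and 127 CPM in wild-types. Of the 8 estimates in the list, 3 were higher and 5 lower. The part of this list in the difference of Cdkn1c was not tested. Sums of the mesonephric, Sertoli and macrophage lists overlapped between the groups. The macrophage marker Emr1 was at 0 counts in all 4 libraries. The erythroid list had a median of -0.43 and sums of 875 to 3183 CPM in mutants and 1686 to 3501 CPM in wild-types, where the groups overlapped. The skeletal muscle list had a median of -1.69 and summed to 45.5 to 79.5 CPM in mutants and 41.3 to 253 CPM in wild-types; in wild-type replicate 1 Myh3 reached 91.7 CPM against 1.36 CPM in wild-type replicate 2 and 5.26 and 1.4 CPM in the mutants. That library was also the one with the lowest Cdkn1b level, and the part of this in the result was not tested.

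The rows whose pattern over the 4 libraries was nearest to each inhibitor were sought among those with a mean of at least 10 CPM, by the root mean square difference of their centred log2 CPM. For Cdkn1b these were Bmpr1b, a BMP receptor (0.0452), and Gnb5 (0.073). For Cdkn1c they were Hspa12b (0.0125) and Pag1 (0.0303). For Cdkn1a they were Setd1b (0.016) and Basp1 (0.031), and for Cdkn2a Cited1 (0.0838) and Ugt8a (0.145). Galm and Spata6 were nearest to Cdkn2b (0.0462 and 0.0541), Pfdn5 and Id3 to Cdkn2c (0.00787 and 0.0124), and Cdkn2d_copy2 and Sorl1 to Cdkn2d (0.0265 and 0.0295). Counting error per library was 22.4% to 35.4% for Cdkn2b, 11.3% to 16.9% for Cdkn2c and 8.11% to 15.2% for Cdkn2a. For Cdkn2d it was 3.82% to 5.52%, for Cdkn1a 3.18% to 4.21% and for Cdkn1c 1.35% to 1.94%. The nearest row of each of these genes lay at a distance smaller than that error, so which rows are nearest to them is not settled. Counting error of the compared rows comes on top, also for Cdkn1b. With 4 libraries such nearness is common, as 113 rows lay within 0.1 of Cdkn1c and 677 within 0.1 of Cdkn2c. Fewer rows, 10 and 1, lay within 0.1 of Cdkn1b and Cdkn2a, which also varied more over the libraries. Their log2 CPM ranges were 0.801 and 1.344, against 0.58 for Cdkn1c and 0.461 for Cdkn2c.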

How the data were processed

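The authors mapped the reads with STAR 2.6.1d, against mm9 according to the submitters' processing notes, and counted them per gene with summarizeOverlaps. The deposited values are raw counts, 1 column per library, and 0 columns were left unused. The annotation and strand handling are not given in the sources used here. Counts were read into R 4.3.3 and tested with edgeR 4.0.16 (TMM, filterByExpr, quasi-likelihood F-test, genotype as the only factor, Benjamini-Hochberg adjustment over 15442 rows, threshold 0.05). Standard errors and 95% intervals came from the F statistic. DESeq2 1.42.0, the tool of the study, was run as an alternative. The fits were tested on simulated data, with changes larger than those of the inhibitors and with libraries drawn independently. That test does not bear on differences of the size seen here or on deviations shared by same-numbered libraries. Positions and lengths are from GENCODE M1 on NCBIM37 and promoters from RefSeq on GRCm38.p6. The inhibitors and gene lists were chosen with earlier results of these data known. Named genes were the inhibitors, Sall1 and Wt1, genes past the threshold and otherwise at most 3 per list with the largest changes and the 2 nearest patterns per inhibitor. Ccnd3, Cdk4, Cdk6, Rb1, Mki67, Skp2, Bmi1, Cbx2, Ezh2, Pdgfra and Col1a1 were added for their roles after their values were seen. Wee1 and Btg1 were named as examples of their list, and Emr1 for its 0 counts. Id1 and Ets1 were added for their unadjusted p. The result of 1 marker gene is not reported here. Alternatives were other normalizations, filters, tests and thresholds, the replicate number as a block, each library left out, and other transcript lengths. Rows ending in _copy were left out in a setting chosen after seeing the data. Poisson intervals of counts and floors cover counting error only.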

Additional observations from a re-analysis of the deposited data

How the results depend on the processing

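Without a library, 1 group has 1 sample, which is assumed to vary like the other group. With each library left out, the log2 fold changes ranged from 0.31 to 0.80 for Cdkn1b, -0.56 to -0.35 for Cdkn1c, -0.36 to 0.38 for Cdkn1a, -1.05 to 0.32 for Cdkn2a, -0.51 to -0.05 for Cdkn2b, -0.35 to 0.074 for Cdkn2c and -0.27 to 0.11 for Cdkn2d, and their median from -0.35 to 0.074, positive without mutant replicate 1. The number of inhibitors called ranged from 0 to 1, Cdkn1c without mutant replicate 1, and the number of rows called from 2 without wild-type replicate 2 and 4 without wild-type replicate 1 to 47 without mutant replicate 2 and 155 without mutant replicate 1.

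The 9 rows called became 105 with DESeq2, 134 with the likelihood ratio test, 28 with no filter, 19 with at least 10 counts in every library (which leaves out Cdkn2b) and 20 at an adjusted p under 0.1. Of the inhibitors, 1 was called with DESeq2 (Cdkn1c, -0.46), and 0 with the likelihood ratio test, the other filters and the wider threshold, Cdkn1c being nearest with the former (adjusted p = 0.0520). The cause was not tested.

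Replicate numbers are shared between the groups, but the labels do not say that a number marks a litter or day. Deviations of same-numbered libraries from their group means correlated at 0.481 across 15442 genes. With 2 libraries per group the deviations of a group mirror each other, so this is a single value. It has no reference and cannot show that a number marks a litter or day. With the replicate block, edgeR called 385 rows (2.49%) and 2 of the inhibitors, Cdkn1b at 0.55 (adjusted p = 0.00625) and Cdkn1c at -0.46 (adjusted p = 0.00696). DESeq2 with the replicate block called 118 rows and 2 inhibitors, Cdkn1b at 0.54 (adjusted p = 0.0112) and Cdkn1c at -0.46 (adjusted p = 0.0163). With few residual degrees of freedom left by the block, the p-values of both tools rest largely on a variance borrowed from other genes. RLE and upper-quartile scaling and leaving out rows ending in _copy changed no inhibitor's direction or call, and the union of exons in place of the longest transcript kept the order of levels. Adding the row Cdkn2d_copy2, a setting chosen after seeing the data, moved the level of Cdkn2d from 27.6 to 52.3 CPM per kb. Depth limits Cdkn2b, with a counting error of 22.4% to 35.4% per library.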
